A study of Mus musculus with 10 samples.

Results

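The 42 genes described here encode factors that build ribosomes, together with Myc, the transcription factor best known for driving their expression. They were taken from a named list of ribosome biogenesis genes, and the members are the symbols of that list present in the deposited expression table. All 42 were among its 11617 genes, and all 42 were also tested, as part of the 11407 genes whose mean reached 1 CPM (reads of a gene scaled to a common library size). By role they comprise 1 regulator, 3 subunits of RNA polymerase I, 6 abundant nucleolar proteins, 6 core proteins of small nucleolar ribonucleoproteins, 14 factors of the small subunit and 12 factors of the large subunit.

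The libraries hold poly-A RNA of macrophages grown from the bone marrow of C57BL/6 mice. The labels give the age as 6 weeks in one field and 7 weeks in another. All 5 groups, the control included, were grown in DMEM with GM-CSF at 50 ng/ml and 10% fetal bovine serum. GM-CSF is a myeloid growth factor that yields macrophages with some dendritic cell features. Control cells received no ligand and carry no time label. The other groups received AmTARS for 1 h, AmTARS for 3 h, Pam3CSK4 for 1 h or Pam3CSK4 for 3 h, and each group held 2 libraries. AmTARS stands for the threonyl-tRNA synthetase from Akkermansia muciniphila, a bacterium of the gut, and Pam3CSK4 is a synthetic lipopeptide that activates the receptor pair TLR2 and TLR1. The dose of Pam3CSK4 was 10 ng/ml. That of AmTARS is labelled 0.5 mm, a unit that cannot be read as a concentration, and the doses cannot be related. The record gives the purpose as a comparison of mRNA levels between both compounds as ligands of TLR2. The labels do not state whether both libraries of a group are separate cultures or mice, and p-values then measure only the spread between these libraries, which may be technical.

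Ribosome production begins in the nucleolus, where RNA polymerase I transcribes the ribosomal RNA precursor. Small nucleolar ribonucleoproteins modify that precursor, and large assemblies of processing factors cut and fold it into the precursors of the small and the large subunit. In macrophages, as in other cells, Myc and growth signals are known to raise the output of this pathway, and ligands of Toll-like receptors are known to change protein synthesis.

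Reads in the listed genes numbered 27398791 to 37559810 per library, and a member had between 216 and 12269 reads in a library. Replicate libraries correlated at 0.998 across genes in each group, while their read counts differed by 3.58 to 7.50 times the variance that sampling alone would give (chi-square per degree of freedom), most in Pam3CSK4 at 3 h. The macrophage label was met: 9 of 10 macrophage symbols were in the table, 1 of the 10 being an older name of Adgre1, with summed levels of 49509 to 54100 CPM. No T cell marker of 6 and no erythroid marker of 6 was listed, and of 5 B cell markers only Cd79b was, at 1.55 to 2.07 CPM. Of 9 neutrophil markers 8 were listed, all but Ly6g, and their summed level was 1629 to 1711 CPM in control against 2136 to 2752 CPM in the treated libraries. S100a8, S100a9, Camp, Ngp, Ltf and Retnlg were higher in every treated library than in either control library. Elane overlapped, at 9.31 and 6.87 CPM in control and 9.22 to 12.1 CPM in treated libraries. Mpo did not rise, at 14.9 and 13.3 CPM in control and 10.9 to 14.8 CPM in treated libraries. Of 8 dendritic cell markers 4 were listed, without Flt3 and Zbtb46, at 211 to 214 CPM in control and 240 to 264 CPM in treated libraries, and 4 of 5 mast cell or basophil markers summed to 10.7 to 13.0 CPM in all. The dendritic cell sum rose through H2-Ab1, at 141 and 140 CPM in control and 179 to 201 CPM in treated libraries. Ciita was lower in every treated library, at 1.22 to 2.98 CPM beside 3.80 and 3.41 CPM in control. Itgax was at 51.9 to 60.8 CPM beside 61.2 and 60.5 CPM, and Ccr7 was lower after 3 h of AmTARS and higher with Pam3CSK4. The rise of the neutrophil sum and of H2-Ab1 coincides with every comparison against control below, and their part in the results was not tested. In bulk RNA, fewer cells of a type and less RNA per cell cannot be told apart.

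The members differed widely in level and little between libraries. Per kilobase of coding sequence, Npm1 stood at 357 CPM, Ncl at 119 CPM and Nhp2 at 93.8 CPM, as means over all libraries. The other end of the range was held by Utp20 at 1.96 CPM, Polr1b at 2.91 CPM and Rrp12 at 3.35 CPM per kilobase of coding sequence. The highest library exceeded the lowest by 1.06-fold for Ncl and by 1.70-fold for Rrs1, with a median of 1.26-fold over the 42 genes and of 1.35-fold over all genes tested. The largest contrasts among members are therefore below a doubling of the level.

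**Figure D1:**
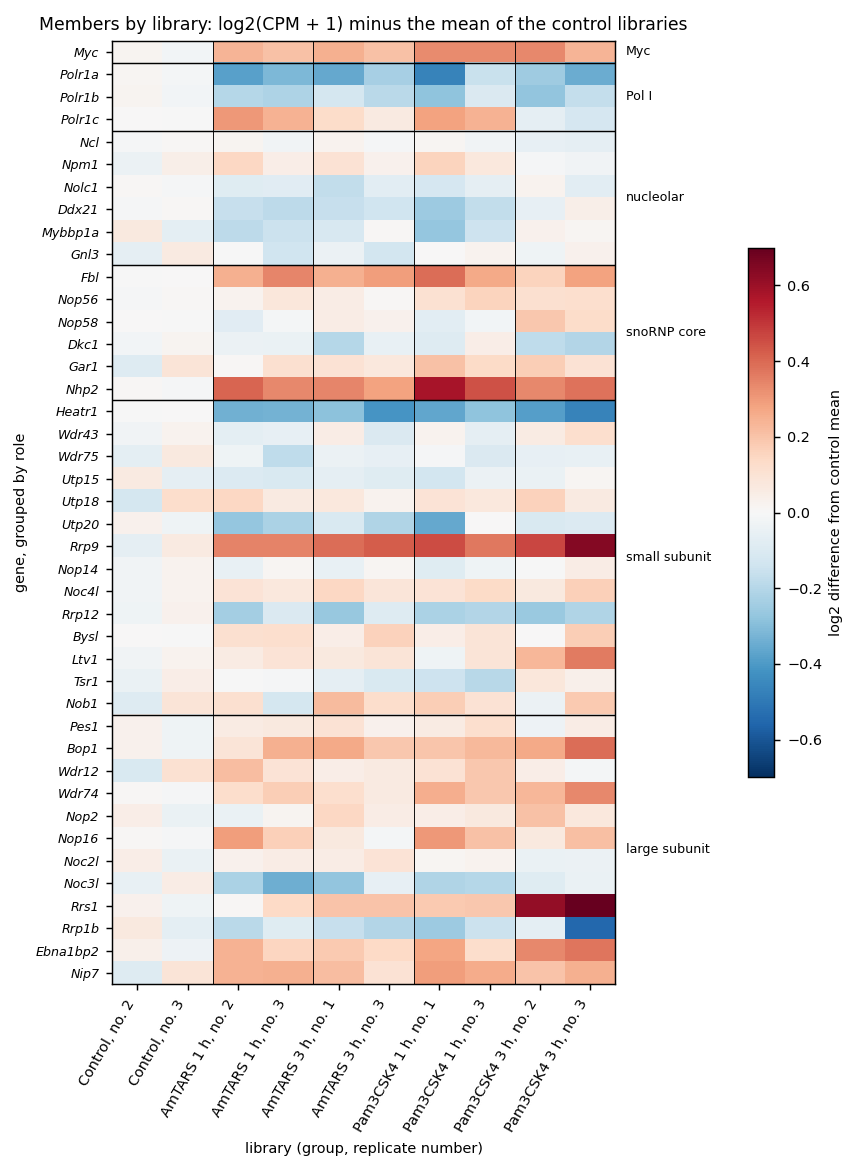
Level of each of the 42 genes in each of the 10 libraries, as log2(CPM + 1) minus the mean of the 2 control libraries. Rows are genes grouped by role and columns are libraries with their replicate numbers. Rows of raised values (Nhp2, Rrp9, Fbl) and of lowered values (Polr1a, Heatr1) run through all 8 treated libraries, and Rrs1 is highest in both Pam3CSK4 3 h libraries.

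Promoter sequence is shown for these genes because Myc binds the E-box CACGTG, a motif often found at the start of its targets. RefSeq promoters of GRCm38.p6, from 250 bases before to 50 bases after the start, matched 36 of the 42 genes, and Myc, Rrp12, Bop1, Rrs1, Fbl and Npm1 had no entry. The palindrome CACGTG occurred in 8 of the 36 genes (22.2%), in 12.02% of the 8808 tested genes with a promoter entry and in 8.09% of all the 27025 genes of the promoter table. The 30 bases around each match follow, 5′ to 3′ on the strand of the gene, with the E-box in capitals.
Nop2, chr6:125131811-125131840, + strand: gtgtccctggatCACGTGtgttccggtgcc
Ltv1, chr10:13193092-13193121, - strand: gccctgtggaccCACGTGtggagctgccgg
Utp20, chr10:88826765-88826794, - strand: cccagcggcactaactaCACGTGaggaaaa
Pes1, chr11:3963965-3963994, + strand: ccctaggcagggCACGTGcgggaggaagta
Mybbp1a, chr11:72441347-72441376, + strand: aagtgactgtcttctgagccCACGTGtttg
Tsr1, chr11:74898092-74898121, + strand: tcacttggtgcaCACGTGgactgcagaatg
Utp18, chr11:93885769-93885798, - strand: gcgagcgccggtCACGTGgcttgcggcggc
Wdr43, chr17:71616220-71616249, + strand: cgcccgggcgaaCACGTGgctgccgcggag
In Nop2 and Utp18 the E-box lay before the start, its first base at -60 and -20, and in the other 6 genes it lay 3 to 41 bases after it. Ltv1, Mybbp1a and Tsr1, described below for their rise between 1 h and 3 h of Pam3CSK4, are in this set. Of the other 3 genes that rose there, Ddx21 and Nop58 have an entry without the E-box and Rrs1 has no entry, and the other 5 E-box genes were not called in that comparison. The share of E-box genes among all genes that rose there was not counted, and Myc itself was not called in that comparison. A match of letters is a description and not a binding site.

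The 100 bases before the start are printed for Polr1c, Ltv1, Wdr74 and Ebna1bp2, the genes with an entry that differed between the ligands at 3 h, and for Tsr1, whose time course differed. Capitals mark GGAAGT or its reverse complement ACTTCC, letters bound by ETS-type factors, and GGGCGG or CCGCCC, the GC box. Neither motif overlaps another as printed.
Polr1c, chr17:46248046-46248145, - strand: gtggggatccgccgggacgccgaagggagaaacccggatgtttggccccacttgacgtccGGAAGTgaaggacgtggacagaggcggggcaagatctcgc
Ltv1, chr10:13193138-13193237, - strand: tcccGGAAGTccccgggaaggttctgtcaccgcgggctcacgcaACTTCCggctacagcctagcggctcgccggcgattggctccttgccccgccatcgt
Tsr1, chr11:74897980-74898079, + strand: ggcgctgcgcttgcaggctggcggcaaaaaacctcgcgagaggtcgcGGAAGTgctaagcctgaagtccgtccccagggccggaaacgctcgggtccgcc
Wdr74, chr19:8735739-8735838, + strand: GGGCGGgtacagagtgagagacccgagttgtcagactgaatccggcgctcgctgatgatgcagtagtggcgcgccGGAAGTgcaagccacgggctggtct
Ebna1bp2, chr4:118620699-118620798, + strand: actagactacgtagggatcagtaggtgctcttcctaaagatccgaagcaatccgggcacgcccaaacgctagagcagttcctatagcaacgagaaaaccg
Over the full promoter entries, the ETS-type letters on either strand occurred in 55.6% of the 36 genes, 33.8% of tested genes and 26.5% of all genes. The GC box occurred in 80.6%, 69.7% and 38.2%, and TATAAA or TTTATA in 5.56%, 8.29% and 15.7%.

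With each ligand some biogenesis genes were higher and others lower than in control. AmTARS at 1 h raised 9 of the 42 genes and lowered 6, where 18.9% of all tested genes were higher and 19.8% lower. At 3 h of AmTARS 6 were higher and 3 lower (18.8% and 17.9% of all tested genes). Pam3CSK4 at 1 h raised 11 and lowered 6 (23.9% and 24.8%), and at 3 h it raised 10 and lowered 5 (24.7% and 24.2%). The share of members that was higher lay near the background of all genes, a little above it at 1 h and below it at 3 h, and the share that was lower lay below it in each comparison. The median log2 fold change of the 42 genes was 0.02, 0.05, 0.05 and 0.04 in the same order, against medians of all tested genes within 0.01 of 0. These 4 comparisons share the control libraries. With quantile scaling the split for AmTARS at 1 h was 10 higher and 4 lower. Leaving out 1 library moved these counts. AmTARS at 1 h gave 5 higher and 3 lower without control replicate 2, 7 and 3 without control replicate 3, and 7 and 2 without its own replicate 3. AmTARS at 3 h gave 4 and 1, 4 and 2, 3 and 1, and 4 and 4 without control replicate 2, control replicate 3, its own replicate 1 and its own replicate 3. Pam3CSK4 at 1 h gave 7 and 2 without its replicate 1. Pam3CSK4 at 3 h gave 9 and 1 without control replicate 2, 11 and 3 without control replicate 3, 11 and 3 without its own replicate 2, and 9 and 2 without its replicate 3.

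These counts stand beside a trend with transcript length. Genes are not independent of each other, and over 11360 of them the rank correlation (Spearman's rho) of the longest annotated transcript with the log2 fold change against control was -0.741 (AmTARS, 1 h) and -0.672 (AmTARS, 3 h). For Pam3CSK4 the values were -0.739 and -0.514. In the direct comparison of the ligands the trend was weaker at 1 h, with a rho of -0.349, and at 3 h rho was 0.00646. Members with short transcripts, such as Nhp2 (1042 nt), Fbl (1197 nt) and Rrp9 (1586 nt), were among those that rose, and members with long ones, such as Polr1a (9216 nt) and Heatr1 (6780 nt), were among those that fell. The median transcript was 2868 nt for the members and 3107 nt for all tested genes.

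**Figure D2:**
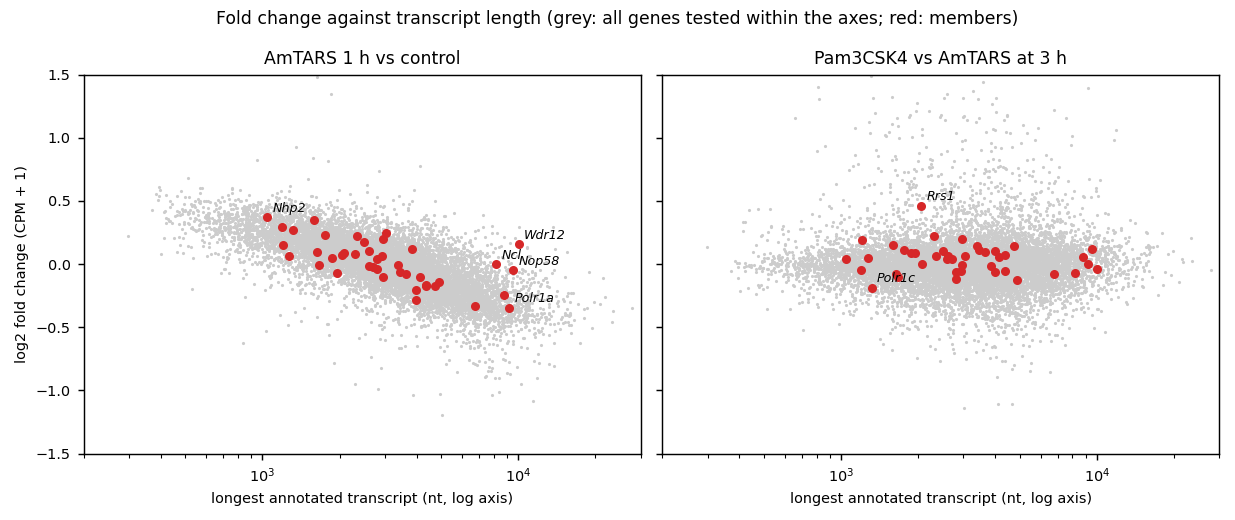
Log2 fold change of each tested gene (grey) and each of the 42 genes (red) against the length of its longest annotated transcript in nucleotides on a log axis. The left panel is AmTARS at 1 h against control, where long transcripts are lower (rho -0.741), and the right panel is Pam3CSK4 against AmTARS at 3 h, where rho is 0.00646.

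When a smooth trend with transcript length and GC content was removed from every library, fewer members passed the test in 3 of the 4 comparisons with control and the falls of the first 3 comparisons no longer did. AmTARS then gave 5 changes at 1 h, all higher (all genes: 8.15% higher and 5.86% lower), and 5 at 3 h, all higher (10.8% and 7.61%). Pam3CSK4 gave 7 at 1 h, all higher (11.7% and 11.1%), and 13 higher and 4 lower at 3 h (20.7% and 21.2%). For Ncl, Wdr12 and Nop58 this correction rests on unusually long annotated transcripts of 8202, 10012 and 9507 nt with coding sequences of 2121, 1269 and 1608 nt, so coding length was used as a further alternative, chosen after seeing the data. With coding length, 6 and 3 members were higher with AmTARS at 1 h and 3 h (8.12% and 11.2% of all genes) and 13 and 18 with Pam3CSK4 (14.3% and 20.9%). With that scale the only lower member in these comparisons was Polr1c with Pam3CSK4 at 3 h, where 8.62%, 10.2%, 14.4% and 21.1% of all genes were lower. Of the 71 changes that passed the test over all comparisons as deposited, 29 passed in the same direction after the transcript length correction and 29 after the coding length correction. All fold changes below are as deposited unless another scale is named, and each is on the log2(CPM + 1) scale, which understates changes of low genes.

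Myc (chromosome 15, 61985391 to 61990374, + strand, mm10) was a little higher in all treated groups. Its level was 8.60 and 8.35 CPM in the control libraries, 10.2 and 9.93 CPM after 1 h of AmTARS, and 10.2 and 9.90 CPM after 3 h. With Pam3CSK4 it was 10.9 and 10.9 CPM at 1 h and 11.0 and 10.2 CPM at 3 h. No treated library overlapped a control library. The log2 fold change was 0.22 (SE 0.08, adjusted p = 0.0316) and 0.23 (SE 0.08, adjusted p = 0.0312) for AmTARS at 1 h and 3 h in limma. For Pam3CSK4 it was 0.33 (SE 0.08, adjusted p = 0.00184) at 1 h and 0.29 (SE 0.08, adjusted p = 0.00518) at 3 h. After the transcript length correction the Pam3CSK4 values of 0.24 and 0.23 still passed (adjusted p = 0.0231 and 0.0177), and the AmTARS values of 0.16 and 0.16 did not (adjusted p = 0.194 and 0.164). With coding length the AmTARS values were 0.19 and 0.19 (adjusted p = 0.0877 and 0.0781). The AmTARS calls at 1 h and 3 h held in 16 and 15 of 23 alternative settings, with values from 0.16 to 0.25. Under a replicate block the 3 h call was lost.

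The genes of RNA polymerase I moved in different directions. Polr1a (chromosome 6, 71909053 to 71984935, + strand) encodes the largest catalytic subunit. It stood at 23.0 and 22.5 CPM in control and between 16.2 and 20.4 CPM in the treated libraries, all below control. Its log2 fold change was -0.35 (SE 0.09, adjusted p = 0.00392) with AmTARS at 1 h and -0.30 (SE 0.09, adjusted p = 0.00776) with Pam3CSK4 at 3 h. On the transcript length corrected scale those values were -0.04 (adjusted p = 0.743) and -0.03 (adjusted p = 0.753). Polr1b, the other large subunit of the active site, had 11.3 and 11.0 CPM in control and 8.96 to 10.3 CPM in treated libraries, again without overlap. It passed the test only with Pam3CSK4 at 3 h (-0.22, SE 0.09, adjusted p = 0.0369), and there its corrected values were -0.14 (adjusted p = 0.183) with transcript length and -0.03 (adjusted p = 0.771) with coding length.

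Polr1c (chromosome 17, 46243920 to 46248054, - strand), a subunit shared by RNA polymerases I and III, was high at 1 h and back near or below control at 3 h. It stood at 24.4 and 24.3 CPM in control, 30.2 and 29.0 CPM after 1 h of AmTARS and 29.8 and 29.0 CPM after 1 h of Pam3CSK4. At 3 h it was 26.7 and 25.5 CPM with AmTARS and 23.2 and 22.3 CPM with Pam3CSK4, so that both Pam3CSK4 libraries lay under every other library. From 1 h to 3 h of Pam3CSK4 it fell by 0.35 on the log2 scale (SE 0.06, adjusted p = 0.000159), and it fell by 0.28 and by 0.32 with the transcript and coding length corrections. Its rise at 1 h against control was 0.27 with AmTARS and 0.26 with Pam3CSK4 as deposited, 0.06 (adjusted p = 0.505) and -0.0025 (adjusted p = 0.982) after the transcript length correction, and 0.18 (adjusted p = 0.0293) and 0.15 (adjusted p = 0.0526) after the coding length correction.

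None of the 6 abundant nucleolar proteins passed against control at 3 h of Pam3CSK4 as deposited, the smallest unadjusted p in limma being 0.181, that of Ncl. After the transcript length correction 4 of the 6 passed there, Ncl (0.16), Ddx21 (0.12) and Mybbp1a (0.12) higher and Npm1 (-0.18) lower, and with coding length Ddx21 (0.15) and Mybbp1a (0.20) passed. Ncl, nucleolin, a chaperone of the ribosomal RNA precursor, held 253 and 257 CPM in control and 244 to 259.7 CPM in treated libraries, and the groups overlapped as deposited. With coding length Ncl was higher with AmTARS at 1 h (0.17, adjusted p = 0.00294) and 3 h (0.16, adjusted p = 0.0032) and with Pam3CSK4 at 1 h (0.21, adjusted p = 0.000138). The transcript length correction also called these 3 comparisons, at 0.29, 0.27 and 0.34. Npm1, nucleophosmin, a nucleolar histone and ribosome chaperone, had 293 and 310.3 CPM in control and 336 and 318 CPM after 1 h of Pam3CSK4. After 3 h of Pam3CSK4 it had 299.8 and 296 CPM, a decrease from 1 h of -0.13 (SE 0.05, adjusted p = 0.0445), and this call was lost in 11 of 23 alternative settings. Nolc1, a chaperone of small nucleolar ribonucleoproteins, ranged from 34.8 and 34.4 CPM in control to 30.6 to 35.2 CPM in treated libraries and passed in no comparison.

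Ddx21 and Mybbp1a fell at 1 h and were higher again after 3 h of Pam3CSK4. Ddx21, a helicase that acts on ribosomal RNA transcription and processing, had 86.4 and 87.6 CPM in control, 72.7 and 77.1 CPM after 1 h of Pam3CSK4 and 83.7 and 89.5 CPM after 3 h. Its change from 1 h to 3 h was 0.21 (SE 0.05, adjusted p = 0.00393) as deposited and 0.15 (adjusted p = 0.0138) after the transcript length correction. Mybbp1a, a nucleolar regulator of ribosomal RNA genes, had 86.2 and 78.4 CPM in control, 68.0 and 74.1 CPM after 1 h and 84.1 and 82.9 CPM after 3 h of Pam3CSK4. Its change between those times was 0.23 (SE 0.06, adjusted p = 0.00489), and 0.23 (adjusted p = 0.000347) after the correction. The earlier falls against control were -0.21 for both genes with Pam3CSK4 and -0.17 for both with AmTARS, and they were near 0 after the coding length correction (0.02 and 0.0037, and 0.02 and 0.03). The call on each rise between the times was lost without 1 library: for Ddx21 and Mybbp1a without the 1 h replicate 1, and for Ddx21 also without the 3 h replicate 3 of Pam3CSK4.

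Among the core proteins of small nucleolar ribonucleoproteins, Nhp2 and Fbl were higher with both ligands. Nhp2 (chromosome 11, 51619735 to 51623714, + strand) belongs to the particles that guide pseudouridine formation and had 34.5 and 34.0 CPM in control. It rose to 45.8 and 43.6 CPM after 1 h and 43.7 and 41.9 CPM after 3 h of AmTARS, and to 51.6 and 47.1 CPM after 1 h and 43.5 and 44.8 CPM after 3 h of Pam3CSK4. Every treated library was above both controls. The log2 fold change with Pam3CSK4 at 1 h was 0.51 (SE 0.06, adjusted p = 1.63e-06), and 0.19 (SE 0.05, adjusted p = 0.00639) after the transcript length correction. With AmTARS it was 0.37 at 1 h and 0.31 at 3 h as deposited, and 0.12 (adjusted p = 0.105) and 0.09 (adjusted p = 0.231) after it.

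Fbl, fibrillarin, the methyltransferase of the particles that guide ribose methylation, had 38.0 and 38.3 CPM in control and 42.7 to 50.3 CPM in treated libraries, without overlap. Its log2 fold change was 0.29, 0.27, 0.33 and 0.22 for AmTARS at 1 h and 3 h and Pam3CSK4 at 1 h and 3 h, and 0.03, 0.04, -0.0069 and -0.01 after the transcript length correction. Nop56, a scaffold of the same particles, had 30.6 and 30.9 CPM in control and 31.0 to 34.4 CPM in treated libraries and did not pass as deposited. With coding length Nop56 was called higher with Pam3CSK4 at 1 h (0.20, adjusted p = 0.0049) and 3 h (0.18, adjusted p = 0.0071). The Nop56 partner Nop58 had 18.2 and 19.0 CPM after 1 h and 22.1 and 21.1 CPM after 3 h of Pam3CSK4, a change of 0.20 (SE 0.07, adjusted p = 0.0245), and of 0.06 (adjusted p = 0.468) after the transcript length correction. Against control Nop58 was called higher in every comparison after that correction, computed with its 9507 nt transcript. With coding length it was called higher against control only with Pam3CSK4 at 3 h (0.23, adjusted p = 0.00482). Dkc1, the pseudouridine synthase, had 8.71 and 8.96 CPM in control and 7.55 to 9.16 CPM in treated libraries, and Gar1, its partner, had 6.34 and 7.31 CPM in control and 7.82 and 7.38 CPM after 3 h of Pam3CSK4. Neither passed the test as deposited. Dkc1 was called lower at 3 h than at 1 h of Pam3CSK4 after both corrections, at -0.24 (adjusted p = 0.0308) with coding length. Against control at 3 h of Pam3CSK4 it was called lower with transcript length and not with coding length (-0.14, adjusted p = 0.19).

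**Figure D3:**
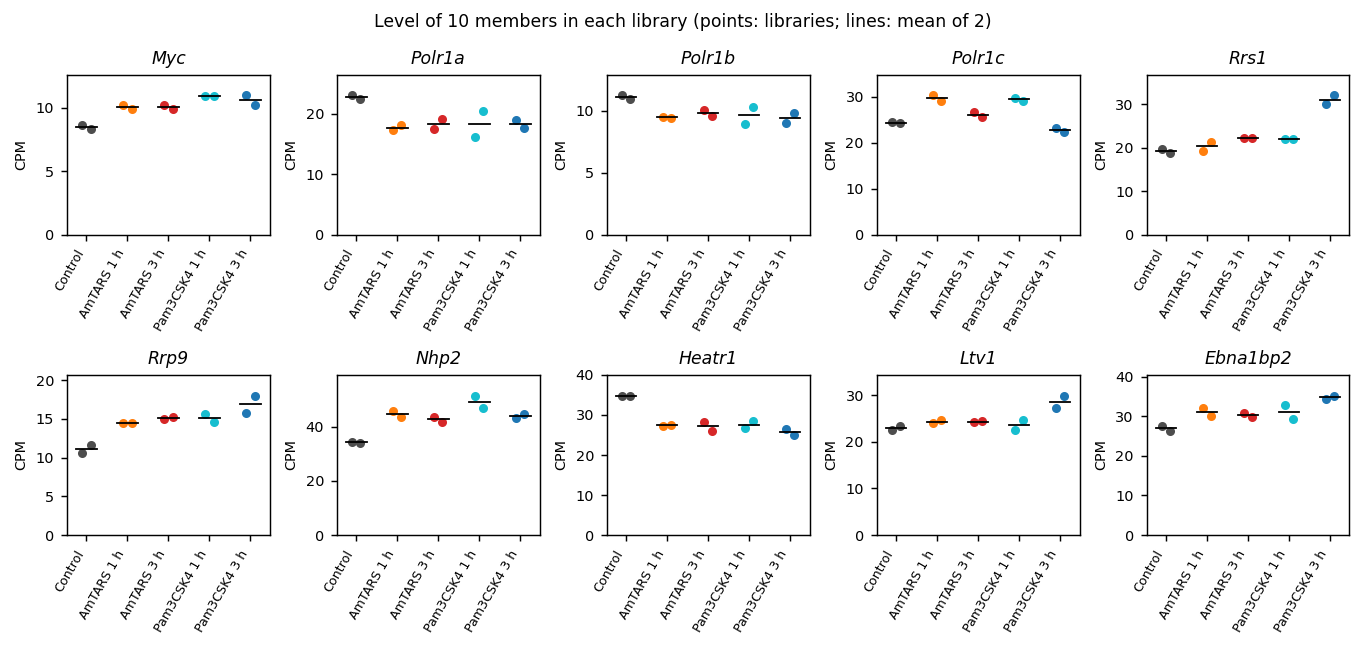
Level in CPM of Myc, the 3 RNA polymerase I genes and 6 other genes in each library, with points for libraries and a line at the mean of the 2 libraries of a group, each axis starting at 0. Polr1a and Heatr1 lie below control in every treated library, Nhp2 and Rrp9 above it, and Rrs1 and Ltv1 are highest in Pam3CSK4 at 3 h.

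Of the 14 small-subunit factors, Rrp9 was higher and Heatr1 lower in all 4 comparisons with control as deposited, and the length corrections kept few of these calls. Rrp9 (chromosome 9, 106475963 to 106485424, + strand), a protein of the ribonucleoprotein that guides the early cuts of the precursor, had 10.6 and 11.7 CPM in control and 14.4 to 15.3 CPM with AmTARS. With Pam3CSK4 it had 15.7 and 14.7 CPM at 1 h and 15.8 and 18.0 CPM at 3 h, again above both controls. At 3 h of Pam3CSK4 the log2 fold change was 0.56 (SE 0.08, adjusted p = 9.85e-06), and 0.35 and 0.45 with the transcript and coding length corrections (adjusted p = 0.000591 and 5.45e-05). The other 3 calls were lost after the transcript length correction, at 0.11 and 0.20 for AmTARS at 1 h and 3 h and 0.11 for Pam3CSK4 at 1 h (adjusted p = 0.375, 0.0635 and 0.313). With coding length the call for AmTARS at 1 h was lost as well (0.20, adjusted p = 0.0801).

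Heatr1 (chromosome 13, 12395027 to 12440289, + strand), a large scaffold of the early small-subunit particle, had 34.8 and 34.8 CPM in control and 24.9 to 28.4 CPM in treated libraries. It passed the test in each comparison with control, from -0.32 (SE 0.06, adjusted p = 0.000376) with Pam3CSK4 at 1 h to -0.43 (SE 0.06, adjusted p = 1.9e-05) with Pam3CSK4 at 3 h. The corrected value at 3 h of Pam3CSK4 was -0.21 (adjusted p = 0.0059) with transcript length and -0.13 (adjusted p = 0.0879) with coding length. For AmTARS at 1 h these corrected values were -0.07 (adjusted p = 0.457) and 0.03 (adjusted p = 0.772), and for Pam3CSK4 at 1 h they were -0.03 (adjusted p = 0.753) and 0.07 (adjusted p = 0.431). The call for AmTARS at 3 h was lost after both corrections too.

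Ltv1 (chromosome 10, 13178140 to 13193168, - strand), which acts late in maturation of the small subunit, passed the test only in comparisons that include 3 h of Pam3CSK4. It had 22.6 and 23.5 CPM in control, 24.0 and 24.7 CPM after 1 h and 24.2 and 24.5 CPM after 3 h of AmTARS. With Pam3CSK4 it had 22.6 and 24.6 CPM at 1 h and 27.2 and 29.9 CPM at 3 h, the latter above every other library. The log2 fold change at 3 h of Pam3CSK4 was 0.30 (SE 0.07, adjusted p = 0.00114) against control, 0.27 (SE 0.07, adjusted p = 0.00486) against 1 h and 0.22 (SE 0.07, adjusted p = 0.0279) against AmTARS at 3 h. The rise against 1 h was lost without 1 h replicate 1 or 3 h replicate 3 of Pam3CSK4.

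Tsr1, a late factor related to GTPases, was lower after 1 h of Pam3CSK4 as deposited and higher after 3 h than after 1 h. It had 20.2 and 21.6 CPM in control, 18.8 and 18.1 CPM after 1 h and 22.2 and 21.5 CPM after 3 h. The fall at 1 h (-0.17, SE 0.07, adjusted p = 0.0388) was lost in 9 of 23 alternative settings, among them leaving out control replicate 3 or either Pam3CSK4 1 h library, and was 0.04 (adjusted p = 0.704) with coding length. Its change between the times was 0.23 (SE 0.07, adjusted p = 0.0117). That call was lost without Pam3CSK4 1 h replicate 3 or 3 h replicate 2. The same change with AmTARS was -0.08 (SE 0.07, adjusted p = 0.702), and the difference of the time changes was 0.31 (SE 0.09, adjusted p = 0.0407). That difference failed the test in 13 of 23 alternative settings.

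Of the other small-subunit factors, Rrp12, which takes part in export and maturation, was lower with Pam3CSK4 (-0.21 at 1 h and -0.24 at 3 h), and Utp20 was lower with AmTARS at 1 h (-0.24). None of these 3 falls passed after either length correction. Utp20 with AmTARS at 1 h was then 0.07 (adjusted p = 0.635) and 0.16 (adjusted p = 0.161). Wdr43, Wdr75, Utp15, Utp18, Nop14 and Noc4l, of the early particle, and Bysl and Nob1, of the late one, passed in no comparison as deposited and had fold changes between -0.10 and 0.18 in the comparisons of groups. With coding length, Wdr43, Utp18, Utp20 and Nop14 were higher with Pam3CSK4 at both times.

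Rrs1 (chromosome 1, 9545408 to 9547455, + strand), an assembly factor of the large subunit, gave the largest change of any member as deposited. It had 19.6 and 18.8 CPM in control, 19.3 and 21.3 CPM after 1 h of AmTARS and 22.2 and 22.2 CPM after 3 h. Pam3CSK4 gave 22.0 and 22.1 CPM at 1 h and 29.9 and 32.0 CPM at 3 h. Both libraries of the last group lay well above all others. The rise at 3 h of Pam3CSK4 was 0.66 (SE 0.07, adjusted p = 1.41e-07), a fold of 1.58 on the scale of CPM + 1. It was 0.47 (SE 0.07, adjusted p = 1.58e-05) against 1 h and 0.46 (SE 0.07, adjusted p = 4e-05) against AmTARS at 3 h. These values passed in all 23 alternative settings, with ranges of 0.56 to 0.71, 0.41 to 0.53 and 0.40 to 0.51. Its smaller rises against control, 0.20 with AmTARS at 3 h and 0.19 with Pam3CSK4 at 1 h, were 0.09 (adjusted p = 0.313) and 0.04 (adjusted p = 0.664) after the transcript length correction.

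The trio Pes1, Bop1 and Wdr12 forms a complex needed for large-subunit maturation, and its genes did not move together. Pes1 had 84.2 and 80.9 CPM in control and 80.6 to 89.6 CPM in treated libraries, with overlap and no call as deposited. With coding length Pes1 was called higher at 1 h of both ligands. Bop1 had 43.5 and 41.7 CPM in control and rose to 45.5 to 51.3 CPM with AmTARS, to 48.9 and 49.9 CPM after 1 h of Pam3CSK4 and to 51.3 and 56.1 CPM after 3 h. At 3 h of Pam3CSK4 its log2 fold change was 0.33 (SE 0.06, adjusted p = 0.000236), and 0.24 and 0.33 with the corrections (adjusted p = 0.000703 and 3.02e-05). Its calls for AmTARS at 1 h and 3 h and Pam3CSK4 at 1 h were lost after the transcript length correction, at 0.06, 0.13 and 0.07 (adjusted p = 0.508, 0.0958 and 0.381). With coding length the call for AmTARS at 1 h was lost, while those for AmTARS at 3 h and Pam3CSK4 at 1 h passed. The last 2 were also lost under a replicate block, and all 3 without control replicate 3. Wdr12 had 14.3 and 16.8 CPM in control and 15.4 to 18.2 CPM in treated libraries and passed in no comparison as deposited. Its transcript length corrected values against control, computed with the 10012 nt transcript, were 0.26 to 0.54 and passed in each comparison. With coding length they were 0.05 to 0.28 and passed at 1 h of both ligands only.

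Ebna1bp2 and Nip7, early and late assembly factors of the large subunit, were higher as deposited at 1 h of both ligands and at 3 h of Pam3CSK4. Ebna1bp2 had 27.6 and 26.3 CPM in control, 29.4 to 32.9 CPM in the 1 h libraries of both ligands, 30.7 and 29.7 CPM after 3 h of AmTARS and 34.3 and 35.2 CPM after 3 h of Pam3CSK4. At 3 h of Pam3CSK4 its log2 fold change was 0.36 (SE 0.07, adjusted p = 0.000164). Its calls at 1 h, 0.20 with either ligand, were lost with coding length, at 0.16 for AmTARS and 0.15 for Pam3CSK4 (adjusted p = 0.0569 and 0.0504), and without control replicate 3. Nip7 passed as deposited with AmTARS at 1 h (0.25) and with Pam3CSK4 at 1 h (0.28) and 3 h (0.22). With coding length, its values there were 0.14, 0.15 and 0.08 (adjusted p = 0.108, 0.058 and 0.254). Nip7 had 22.5 and 25.6 CPM in control and 25.8 to 29.6 CPM in treated libraries. Each of its calls as deposited was lost without control replicate 2, and that at 3 h of Pam3CSK4 also without Pam3CSK4 3 h replicate 3. After the transcript length correction, Nip7 and Ebna1bp2 were each called higher in every comparison with control. Wdr74 was higher with Pam3CSK4 at 1 h (0.22) and 3 h (0.28), and Nop16 was higher at 1 h of AmTARS (0.23) and of Pam3CSK4 (0.25). After the transcript length correction, Wdr74 was at -0.08 (adjusted p = 0.304) and 0.07 (adjusted p = 0.341). With coding length, Wdr74 passed at 3 h of Pam3CSK4 and not at 1 h. Both Nop16 calls were lost after each correction, at 0.12 and 0.11 with transcript length and 0.07 and 0.06 with coding length (adjusted p = 0.273, 0.26, 0.461 and 0.524).

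Noc3l was lower with AmTARS at 1 h (-0.28, SE 0.09, adjusted p = 0.0141) and did not pass there after either correction. Rrp1b was lower with Pam3CSK4 at 3 h (-0.31, SE 0.11, adjusted p = 0.029), where its libraries disagreed at 11.4 and 7.88 CPM beside 12.6 and 11.4 CPM in control. Without replicate 3 of that group, or without control replicate 2, the Rrp1b call was lost. It was also lost after the transcript and coding length corrections, at -0.17 (adjusted p = 0.172) and -0.22 (adjusted p = 0.0843). Nop2, a methyltransferase of the large-subunit ribosomal RNA, and Noc2l, a partner of Noc3l, passed in no comparison as deposited. With coding length Nop2 was called higher with Pam3CSK4 at 3 h.

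**Figure D4:**
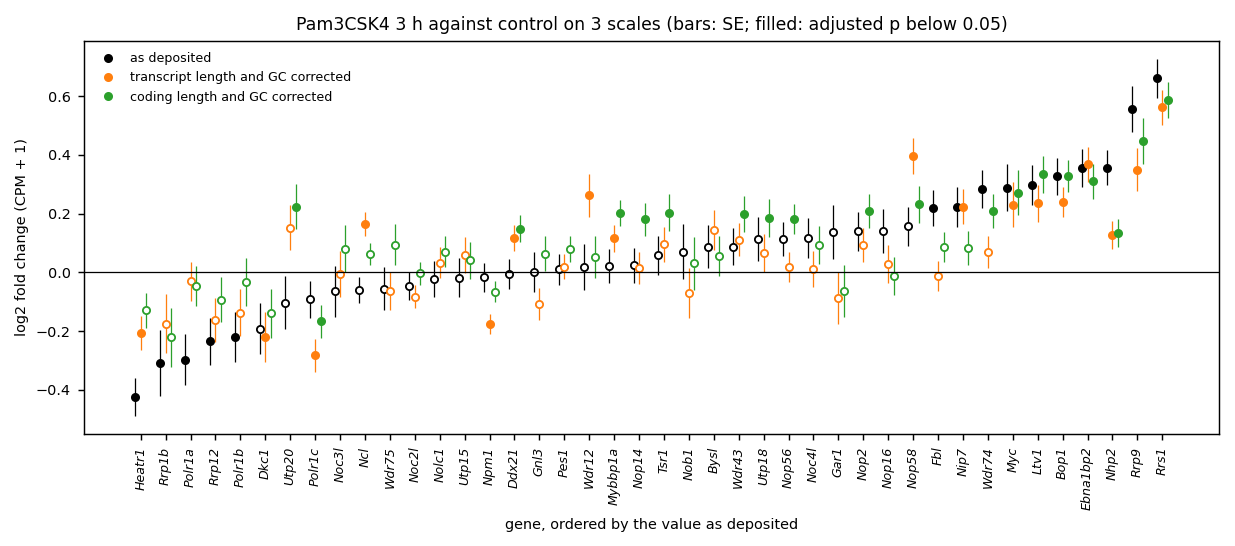
Log2 fold change of the 42 genes between Pam3CSK4 at 3 h and control, with SE bars, as deposited (black), after the transcript length and GC correction (orange) and after the coding length and GC correction (green). Filled points passed an adjusted p of 0.05. Rrs1, Rrp9, Ebna1bp2, Bop1, Ltv1, Myc and Nhp2 are filled on all 3 scales, while Polr1a is filled only as deposited.

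Direct comparison of the ligands gave calls at 3 h and none at 1 h. At 1 h, 0 of 42 genes passed in limma (all tested genes: 0.184% changed), 2 had an unadjusted p under 0.05, and voom on recovered reads also gave 0. At 3 h, 4 were higher with Pam3CSK4 than with AmTARS (9.08% of all genes) and 1 was lower (8.04%). The split was 2 higher and 1 lower with median scaling and turned to 2 higher and 3 lower with quantile scaling. The 4 were Rrs1 at 0.46, Ltv1 at 0.22, Ebna1bp2 at 0.20 (SE 0.07, adjusted p = 0.0448) and Wdr74 at 0.19 (SE 0.06, adjusted p = 0.0447), and the 1 was Polr1c at -0.19 (SE 0.06, adjusted p = 0.0409). Wdr74 had 23.2 and 22.2 CPM with AmTARS and 25.2 and 27.1 CPM with Pam3CSK4. All 5 also passed after each length correction, when Ddx21 was called higher and Npm1 lower as well, 5 and 2 in all (10.8% and 11.1% of genes with transcript length, 10.6% and 11.1% with coding length). Apart from Rrs1, each of these calls was lost in 5 to 10 of 23 alternative settings. The count of 5 became 1 without AmTARS 3 h replicate 1, without AmTARS 3 h replicate 3 or without Pam3CSK4 3 h replicate 3, 2 without either control library, and 3 without AmTARS 1 h replicate 2. Since the doses cannot be related, these are differences between the treatments as given.

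**Figure D5:**
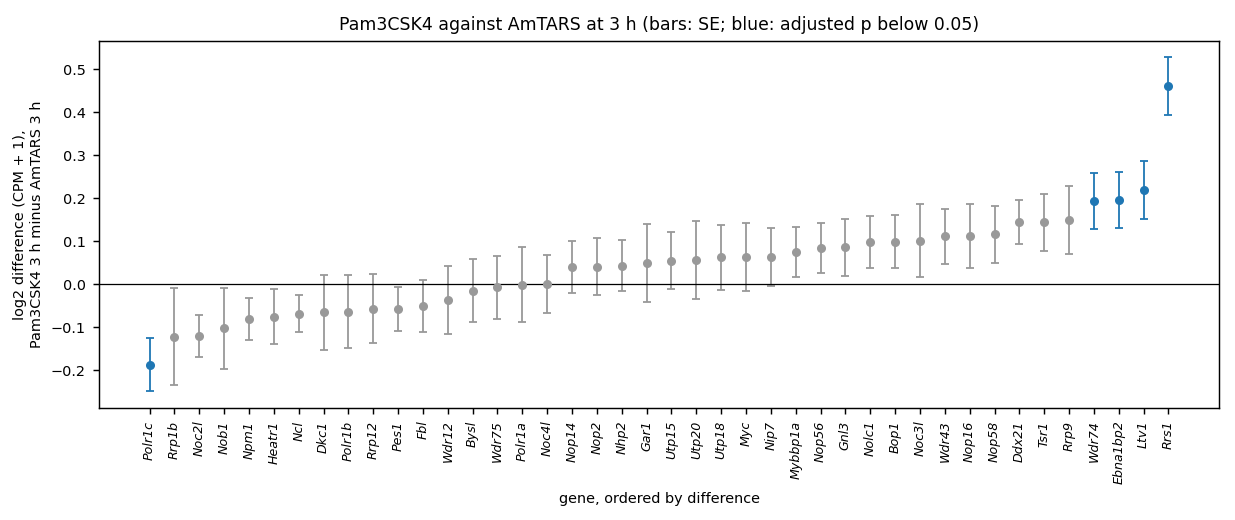
Difference of Pam3CSK4 3 h minus AmTARS 3 h on the log2(CPM + 1) scale for each of the 42 genes, ordered by its size, with SE bars. The 5 genes in blue passed an adjusted p of 0.05, Rrs1 at 0.46 standing apart from the other 4.

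Over time, AmTARS gave 0 of 42 changes between 1 h and 3 h in limma (all genes: 2.38% changed), with 2 at an unadjusted p under 0.05 and 0 with voom on recovered reads. Pam3CSK4 gave 6 higher at 3 h than at 1 h (16.2% of all genes) and 2 lower (15.3%), a split of 6 and 4 with quantile scaling and of 6 and 1 with median scaling. Those higher were Rrs1, Ltv1, Mybbp1a, Tsr1, Ddx21 and Nop58, and those lower were Polr1c and Npm1. After the transcript length correction 8 were higher and 6 lower (16.4% and 17%), and after the coding length correction also 8 and 6 (16.4% and 17.3%). The count as deposited was 4 without Pam3CSK4 1 h replicate 1 and 5 without Pam3CSK4 3 h replicate 3. The difference of the time changes between the ligands was called for 2 genes (5.71% of all genes higher, 3.49% lower), Rrs1 at 0.35 (SE 0.10, adjusted p = 0.0239) and Tsr1. These 2 calls became 0 when AmTARS 1 h replicate 3, either AmTARS 3 h library, either Pam3CSK4 1 h library or Pam3CSK4 3 h replicate 3 was left out, and 1 when AmTARS 1 h replicate 2 or either control library was.

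A longer list of ribosome biogenesis genes, without the 42, held 133 symbols, of which 127 were measured. As deposited, 31 were higher and 10 lower with AmTARS at 1 h, 27 and 8 at 3 h, 46 and 11 with Pam3CSK4 at 1 h, and 49 and 7 at 3 h. As shares of the list these were 24.4% and 7.87%, 21.3% and 6.3%, 36.2% and 8.66%, and 38.6% and 5.51%, beside 18.9% and 19.8%, 18.8% and 17.9%, 23.9% and 24.8%, and 24.7% and 24.2% of all tested genes. After the transcript length correction, 8.15% and 5.86%, 10.8% and 7.61%, 11.7% and 11.1%, and 20.7% and 21.2% of all genes were higher and lower. Of the 127 genes of the list, 12 and 1, 16 and 1, 18 and 1, and 28 and 4 were higher and lower on that scale. Between the ligands at 3 h, 7 were higher (5.51%) and 2 lower (1.57%) with Pam3CSK4, beside 9.08% and 8.04% of all tested genes. Eif6, a factor that keeps the new large subunit from joining early, had 85.8 and 84.9 CPM in control, 120.1 and 119 CPM after 3 h of AmTARS and 143 and 174 CPM after 3 h of Pam3CSK4. Its difference between the ligands at 3 h was 0.39 (SE 0.06, adjusted p = 0.0001). Rcl1, an endonuclease of small-subunit processing, had 9.51 and 9.91 CPM in control, 11.1 and 10.1 CPM after 3 h of AmTARS and 15.5 and 17.9 CPM after 3 h of Pam3CSK4, a difference between the ligands of 0.61 (SE 0.08, adjusted p = 2.02e-05). Nop10, of the pseudouridine-guiding particles, was higher at 1 h with AmTARS (0.41) and with Pam3CSK4 (0.53).

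The products that these factors assemble gave a more uniform picture as deposited. Of 76 cytosolic ribosomal protein genes, 75 were higher with AmTARS at 1 h, 74 at 3 h, 74 with Pam3CSK4 at 1 h and 72 at 3 h. Of all tested genes, 18.9%, 18.8%, 23.9% and 24.7% were higher and 19.8%, 17.9%, 24.8% and 24.2% lower. None of the 76 was lower, and their median log2 fold changes were 0.38, 0.32, 0.46 and 0.31. Their summed level was 27020 and 28268 CPM in control and 32769 to 39047 CPM in treated libraries. The summed level of the 41 biogenesis genes other than Myc was 1672 and 1690 CPM in control and 1701 to 1738 CPM in treated libraries. All listed genes summed to 959639 and 960837 CPM in control and to 998260 to 1.0378e+06 CPM in treated libraries. As a share of that total, the sum of the 41 genes was lower in every treated library than in either control library. Ribosomal protein transcripts are short, and after the transcript length correction 42, 35, 44 and 24 of the 76 were higher and at most 1 lower. On that scale 8.15%, 10.8%, 11.7% and 20.7% of all genes were higher and 5.86%, 7.61%, 11.1% and 21.2% lower. From 1 h to 3 h of Pam3CSK4, 48 of the 76 fell as deposited and 29 after the correction, beside 15.3% and 17% of all genes. Of 77 mitochondrial ribosomal protein genes, 46, 42, 57 and 44 were higher as deposited with at most 1 lower. After the correction 16, 13, 21 and 24 were higher and 1, 2, 3 and 8 lower. The shares of all genes against control are those given above for each scale.

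Of 17 genes of the Myc network besides Myc, 13 were measured. Mnt, a repressor that competes with Myc for its partner Max, had 82.8 and 73.7 CPM in control and 59.3 and 52.1 CPM after 3 h of Pam3CSK4, a log2 fold change of -0.48 (SE 0.06, adjusted p = 4.42e-06), and of -0.43 after the transcript length correction. Between the ligands at 3 h Mnt differed by -0.30 (SE 0.06, adjusted p = 0.00223). Mxd4, another repressor of this family, changed by -0.61 and Mxd1 by 0.25 with Pam3CSK4 at 3 h, while Max, the partner itself, stood at 0.06 (adjusted p = 0.362). The largest change of the 13 there was that of Mga at -0.65, and Mycbp2 was at -0.49. After the transcript length correction Mga and Mycbp2 were at -0.38 and -0.19. At 1 h Max was called higher with either ligand, by 0.16, and after that correction it was at 0.08 with AmTARS and 0.05 with Pam3CSK4 and did not pass. Of 28 other Myc targets, 14 were higher at each time of AmTARS and 15 at each time of Pam3CSK4 as deposited. In the order used above, 4, 2, 3 and 2 were lower. Of all tested genes, 18.9%, 18.8%, 23.9% and 24.7% were higher and 19.8%, 17.9%, 24.8% and 24.2% lower. After the transcript length correction 7, 8, 6 and 11 of the 28 were higher, beside 8.15%, 10.8%, 11.7% and 20.7% of all genes. Odc1, the rate-limiting enzyme of polyamine synthesis, had 43.2 and 45.7 CPM in control, 62.3 and 64.1 CPM after 3 h of AmTARS and 82.9 and 105 CPM after 3 h of Pam3CSK4. Its log2 fold changes against control were 0.50 and 1.05 there.

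Of 13 subunits and factors of RNA polymerase III, which makes the smallest ribosomal RNA and tRNAs, 3, 2, 3 and 2 were higher and 3, 3, 4 and 2 lower against control as deposited, in the order used above. Those shares, 23.1%, 15.4%, 23.1% and 15.4% higher and 23.1%, 23.1%, 30.8% and 15.4% lower, stand beside the same shares of all tested genes, 18.9%, 18.8%, 23.9% and 24.7% higher and 19.8%, 17.9%, 24.8% and 24.2% lower. Polr3d was 0.36 (SE 0.08) higher with Pam3CSK4 than with AmTARS at 3 h. Of 12 proliferation markers, 2, 2, 4 and 4 were higher (16.7% and 33.3%) and 2, 2, 0 and 0 lower, against those same backgrounds. Mki67, a marker of cycling cells, was 0.54 (SE 0.08) higher with Pam3CSK4 than with AmTARS at 3 h, and no other of these markers was called there. Its mean was 24.9 CPM in control, 20.3 CPM after 3 h of AmTARS and 29.9 CPM after 3 h of Pam3CSK4. The difference thus includes a called fall with AmTARS (-0.28 against control). In the same comparison of the ligands Rrs1, Ltv1, Ebna1bp2 and Wdr74 were higher. The part of Mki67 in those differences was not tested.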

How the data were processed

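The authors deposited 1 table of log2 values, log2(CPM + 1), for 11617 genes and 10 libraries; poly-A RNA was prepared with a stranded kit, per the labels' protocols. Reads were aligned with STAR 2.5.1 to genome build mm10 and R 3.3.0 was used, per the submitters' processing notes. Counter, annotation and scaling: not given in the sources used here. Back-transformed values were whole reads (within 0.1 read) for 100% of values in each library.

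For the 11407 genes whose mean reached 1 CPM, group means were fitted with limma 3.58.1 (R 4.3.3, intensity trend). Residual degrees of freedom were 5 and prior degrees of freedom 14.7. Benjamini-Hochberg adjustment ran over all genes in each of 9 contrasts, with a threshold of 0.05. SE denotes limma's moderated standard error, from a spread that all groups share. Length, GC and positions came from GENCODE M21, and 11360 tested genes matched (11130 with a coding length). The corrections removed natural splines, 5 degrees of freedom each, of log2 length and GC per library. The members, their roles and the other lists were chosen with earlier results of these data known. All members may be named; levels in every library are given for 14 of them chosen by role and for the 3 largest changes per comparison, and from other lists the 3 largest changes and Max, Mxd1 and Mnt. Ltv1, Ddx21, Mybbp1a, Tsr1, Nop58, Wdr74, Ebna1bp2, Nip7 and Rrp1b levels in further groups, and the printed promoters, were added after their values were seen. The calculation was tested on simulated data. Alternatives were other filters, pseudocounts, scalings, spread estimates, voom on recovered reads, a replicate block, both length corrections and leaving out each library. Figures used matplotlib 3.10.9 in Python 3.11.15.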

Additional observations from a re-analysis of the deposited data

Results flagged for a closer look

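Between the ligands at 3 h, 5 of the 42 genes differed in a direct test, Pam3CSK4 minus AmTARS: Rrs1 by 0.46, Ltv1 by 0.22, Ebna1bp2 by 0.20, Wdr74 by 0.19 and Polr1c by -0.19 on the log2 scale. Of all tested genes, 9.08% were higher and 8.04% lower there. The Rrs1 call held in all 23 alternative settings, and the others held in 13 to 18 of them. The change from 1 h to 3 h also differed between the ligands for Rrs1, by 0.35, and for Tsr1, by 0.31 (all genes: 5.71% higher and 3.49% lower). Those calls held in 16 and 10 of the 23 settings. With 2 libraries a group, no search for outlying libraries was possible.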

How the results depend on the processing

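As deposited, the counts of changed genes were 15, 9, 17 and 15 against control (AmTARS 1 h, AmTARS 3 h, Pam3CSK4 1 h, Pam3CSK4 3 h), 0 and 5 between the ligands at 1 h and 3 h, 0 and 8 between the times for AmTARS and Pam3CSK4, and 2 for the difference of the time changes. The transcript length and GC correction gave 5, 5 and 7 for the first 3 and 14 for the time change of Pam3CSK4. The coding length and GC correction gave 6 and 3 for AmTARS and 14 for that time change. Median scaling gave 3 between the ligands at 3 h, and the compared groups alone gave 2 there and 1 for the difference of the time changes. The coding length correction and the transcript length correction with a replicate block were chosen after seeing the data. Where a left-out library leaves 1 in its group, that library is assumed to vary like the other groups. Leaving out each library gave ranges of 8 to 15, 4 to 10, 9 to 19, 10 to 15, 0 to 0, 1 to 6, 0 to 0, 4 to 9 and 0 to 3 in the order above. The low counts were 8 and 9 for AmTARS 1 h (without control replicate 2 or AmTARS 1 h replicate 3), 5 and 4 for AmTARS 3 h (without control replicate 2 or AmTARS 3 h replicate 1) and 9 for Pam3CSK4 1 h (without its replicate 1).

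Correlations between groups of the deviations of replicate 3 from its group mean ran from -0.206 to 0.204. With 2 libraries a group, and only some groups sharing both numbers, these values cannot decide whether replicate numbers pair the libraries. With a replicate block the counts were 4 and 8 for AmTARS 3 h and Pam3CSK4 1 h, 3 between the ligands at 3 h, 5 for the time change of Pam3CSK4 and 0 for the difference of the time changes. With the replicate block and the transcript length correction they were 5, 3 and 5 for the first 3 comparisons and 1 for the last.

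Of 71 single changes against control and between groups, 6 reversed with transcript length: Utp20 0.0674 (AmTARS 1 h), Polr1c -0.00251 (Pam3CSK4 1 h), Wdr74 -0.0845 (Pam3CSK4 1 h), Polr1a 0.0138 (Pam3CSK4 1 h), Fbl -0.00689 (Pam3CSK4 1 h), Fbl -0.0127 (Pam3CSK4 3 h). With the replicate block added, 6 reversed: Utp20 0.0674 (AmTARS 1 h), Polr1a 0.0196 (AmTARS 3 h), Wdr74 -0.0925 (Pam3CSK4 1 h), Polr1a 0.0754 (Pam3CSK4 1 h), Fbl -0.0213 (Pam3CSK4 1 h), Fbl -0.0127 (Pam3CSK4 3 h). With coding length, 9 reversed: Ddx21 0.0222 (AmTARS 1 h), Utp20 0.159 (AmTARS 1 h), Mybbp1a 0.0349 (AmTARS 1 h), Heatr1 0.0300 (AmTARS 1 h), Ddx21 0.012 (AmTARS 3 h), Ddx21 0.0156 (Pam3CSK4 1 h), Mybbp1a 0.00372 (Pam3CSK4 1 h), Tsr1 0.0363 (Pam3CSK4 1 h), Heatr1 0.0671 (Pam3CSK4 1 h). None of these reversed values passed the test, and the cause of each was not tested. No other setting reversed a change.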
